A study of Mus musculus with 4 samples.

Results

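Immunoglobulin-type adhesion molecules were described in 4T1 cells, an established line of mouse mammary carcinoma. The genes were chosen by name: L1cam, Ceacam1, Alcam, Mcam, Icam1, Vcam1, Cadm1, Bcam and Ncam1. On the array 32 of 45101 probe sets were paired by the platform annotation with 1 of these 9 symbols and no other. Total RNA of 2 CD44v8-10-positive and 2 CD44v8-10-negative 4T1 samples was measured on one-colour Affymetrix arrays. CD44v8-10 is a form of the surface receptor CD44 that carries variant exons. Both groups were the same line, grown in the same serum-containing medium, kept in normoxia and picked by hand under a dissecting microscope, with no other treatment named. How CD44v8-10 was scored is not given in the labels, and neither is whether the replicates came from separate cultures, so p-values rest on sample-to-sample spread that could be technical alone. The comparison asked how far mRNA levels differed between positive and negative cells.

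Receptors of this family span the cell membrane and carry immunoglobulin-like domains outside the cell. Some bind the same molecule on a neighbouring cell, and others bind integrins or laminins. Several are known from nerve, endothelium or leukocyte adhesion and are also found on carcinoma cells, where they take part in contact between tumour cells and with blood vessels. Icam1 and Vcam1 are known targets of NF-kappaB, the transcription factor of inflammatory signalling.

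No member gene passed the test between positive and negative cells. After quantile normalization between arrays, 12 of the 32 member probe sets lay above a filter on dim probe sets, a normalized signal of 19.4. They belonged to 6 genes, Vcam1, Alcam, L1cam, Mcam, Icam1 and Ceacam1, and each gene was tested by its brightest probe set. All probe sets of Cadm1, Bcam and Ncam1 lay below the filter. Of the 6 tested genes 0 were called at a threshold of 0.05 (two-sided limma test, adjusted by Benjamini-Hochberg across 11956 genes), and 0.0753% of all tested genes were called, none of them lower. At an unadjusted p under 0.05 there were 2 member genes, L1cam higher and Ceacam1 lower, where 4.45% of all tested genes stood. Ceacam1 passed the filter only through its negative arrays, so nothing is read from that count. Each p also moved with the arrays used: by limma that of L1cam was 0.0553 without negative replicate 2 and 0.237 with no scaling between arrays, and that of Ceacam1 was 0.0791 to 0.153 without positive replicate 2, negative replicate 1 or negative replicate 2. With 2 arrays per group the precision is low: the median standard error of a member's log2 fold change was 0.28. In RNA from whole samples, fewer cells that make a transcript and less of it per cell cannot be told apart.

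Positive replicate 2 stood apart. Across 11956 genes its correlation with each other array was 0.968 to 0.972, while positive replicate 1 correlated at 0.985 and 0.980 with the negative arrays, above its 0.972 with its own replicate. Without positive replicate 2 the members' log2 fold changes were 0.96 for L1cam, 0.53 for Mcam, -0.13 for Alcam, -0.37 for Vcam1, -0.41 for Icam1 and -0.68 for Ceacam1, and 0 were called (limma).

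The labelled cell type was checked against marker genes. All 8 epithelial markers lay above the filter, with mean signals of 8364 for the keratin Krt8 and 12087 for Krt18 over the 4 arrays. The summed signal of these markers was 36087 to 39128 in the positive arrays and 27125 to 33002 in the negative arrays. All 8 had log2 fold changes above 0 and 3 were called higher (limma), where 0.0753% of all tested genes were called. Esrp1 had 1348 and 1365 in positive against 64.1 and 30.9 in negative arrays. Cldn7 had 1152 and 904 against 203 and 184, and Epcam 2309 and 2479 against 940 and 930. The epithelial markers themselves thus differed between the groups. Markers of endothelium, which also makes Vcam1, Icam1 and Mcam, gave sums of 243 to 244 in positive and 205 to 214 in negative arrays. Of these 9 markers 2 were above the filter, the secreted protein Egfl7 and the claudin Cldn5. Pecam1 had signals of 6.90, 3.95, 5.40 and 5.17. The endothelial cadherin Cdh5 was higher in both positive arrays, at 50.025 and 18.2 against 2.875 and 7.15. Plvap was also higher in both, at 8.75 and 14.95 against 3.875 and 4.3. Tie1 was lower in both, at 1.8 and 2.625 against 4.15 and 3.5. Kdr had overlapping groups, with its highest signal, 34.125, on positive replicate 2. Leukocyte and macrophage markers summed to 714 and 1061 in positive and 664 to 747 in negative arrays, with 6 of 10 above the filter. Their brightest members were the integrin chain Itgb2 and the receptor Cd14, and the leukocyte phosphatase Ptprc had 0.825 to 12.7. Fibroblast and pericyte markers summed to 175 to 200 in positive and 209 to 236 in negative arrays, with 3 of 10 above the filter. The brightest were the growth factor receptor Pdgfra, at 47.0 and 33.55 in positive against 108 and 76.6 in negative arrays, and the collagen chain Col1a2. These markers did not share a direction. Rgs5 was also lower in both positive arrays, while Cspg4 was higher, at 31.5 and 31.25 against 15.1 and 6.475. Neural and Schwann cell markers, relevant to L1cam, Mcam and Ncam1, summed to 461 to 568 in positive and 448 to 487 in negative arrays, with 3 of 7 above the filter. The brightest were the myelin protein Mbp and the microtubule protein Map2. No marker was listed at 0, and the part of any of these cell types in the members' values was not tested.

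L1cam, a homophilic receptor first known from growing axons and also found at the edges of carcinomas, had the lowest p of the members. Its normalized signals were 164 and 152 in positive against 90.0 and 67.4 in negative arrays. The groups did not overlap, and their means were 158 ± 8.57 and 78.7 ± 15.97 (SD, n = 2 each). The log2 fold change, on the log2(value + 16) scale used throughout and which understates differences of dim genes, was 0.89 ± 0.26 (SE; 95% interval 0.32 to 1.45), or 1.85-fold. By limma the unadjusted p was 0.00491 and the adjusted p 0.826. In the intensities as deposited the groups did not overlap either, at 147 and 135 against 67.5 and 97.1. A second probe set of L1cam was below the filter, with 6.47 and 43.8 in positive against 19.6 and 1.70 in negative arrays, and the groups overlapped. L1cam lies on chromosome X at 73853778 to 73880838 (GRCm38.p6). RefSeq gives 2 overlapping start sites, and the window of 1 of them is shown because L1cam had the lowest p among the members (chrX:73880785-73881084, minus strand, read along the gene). It covers 250 bases before the start and 50 after it, and in this and the windows that follow, capitals mark matches to the NF-kappaB-type letters (GGG, any 5 bases, then CC) or the E-box CACGTG on either strand.
L1cam: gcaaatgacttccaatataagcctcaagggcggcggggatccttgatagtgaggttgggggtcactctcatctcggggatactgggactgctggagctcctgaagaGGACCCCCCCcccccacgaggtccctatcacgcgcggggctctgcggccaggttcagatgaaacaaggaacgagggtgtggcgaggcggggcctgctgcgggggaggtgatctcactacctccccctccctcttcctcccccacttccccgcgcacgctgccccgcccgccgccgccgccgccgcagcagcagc
The window has 1 match of the NF-kappaB type, which runs into a stretch of C, and none to CACGTG.

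**Figure D1:**
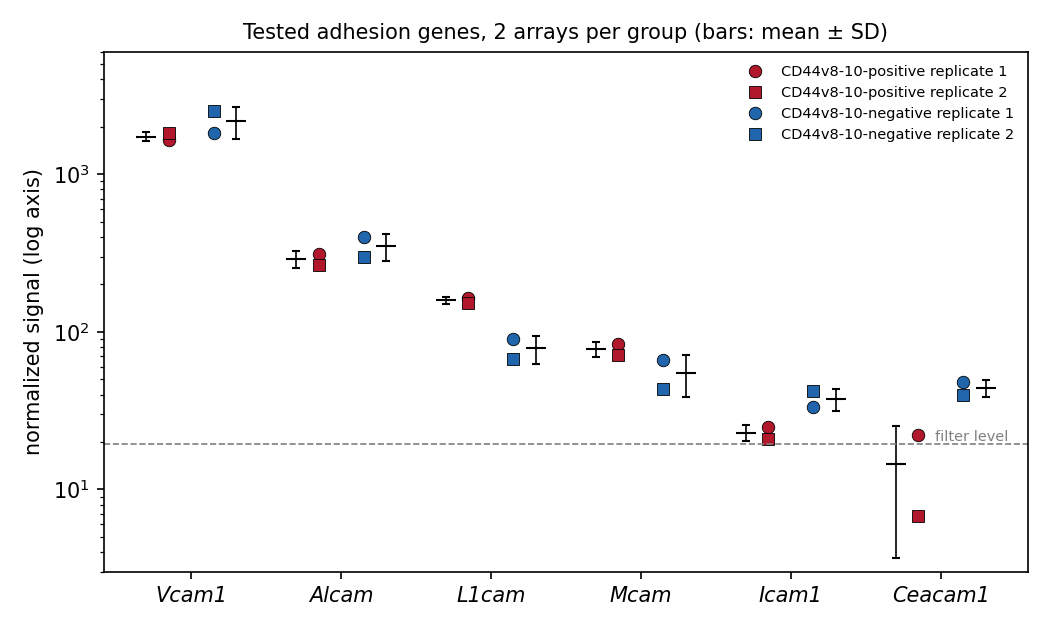
Normalized signal of the probe set used for each of the 6 tested adhesion genes on a log axis, 1 point per array (red positive, blue negative, circles replicate 1, squares replicate 2), with the mean and SD of each group beside the points. The L1cam points are at 164 and 152 in the positive arrays and at 90.0 and 67.4 in the negative arrays, while those of Alcam overlap; signals of different probe sets are not on a common scale.

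Ceacam1, a homophilic receptor of epithelial and immune cells whose long form carries inhibitory signalling motifs, passed the filter on dim probe sets only through its negative arrays, so that it could be tested only because they were higher, and its values are a description. Its tested probe set gave normalized signals of 22.1 and 6.83 in positive against 48.0 and 40 in negative arrays. Both positive arrays lay below both negative arrays, but 1 positive array was below the filter level of 19.4, so the fold is no exact size. The log2 fold change was -1.02 ± 0.41 (SE; 95% interval -1.92 to -0.13), with an unadjusted p of 0.0285 and an adjusted p of 0.985 by limma. It was -0.47 with a pseudocount of 64 and -1.74 with a pseudocount of 1. The other 7 probe sets of Ceacam1 were below the filter, with signals of 0.6 to 22.3. Among these the groups did not overlap in 3, where 33.2% of all probe sets above the filter did not. Of the 3, 1450494_x_at had 7.28 and 3.17 in positive against 22.3 and 8.57 in negative arrays. Both 1427712_at and 1427711_a_at had signals of at most 4.05 with the positive arrays on the upper side. The direction of Ceacam1 therefore rested on 1 probe set above the filter. The gene lies on chromosome 7 at 25461702 to 25477647, and its start window is shown because it was the 1 member window of 7 with a CACGTG match (chr7:25477576-25477875, minus strand).
Ceacam1: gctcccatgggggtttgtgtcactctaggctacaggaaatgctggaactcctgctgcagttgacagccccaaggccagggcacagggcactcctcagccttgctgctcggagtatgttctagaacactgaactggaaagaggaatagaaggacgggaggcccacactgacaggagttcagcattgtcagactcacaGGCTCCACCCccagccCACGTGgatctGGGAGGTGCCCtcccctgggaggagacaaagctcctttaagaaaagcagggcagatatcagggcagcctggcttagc
The match begins 38 bases before the start, between matches of the NF-kappaB type at 54 and, overlapping each other, at 27 and 26 bases before it.

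Vcam1, the receptor that holds leukocytes through their integrins, had 3 probe sets above the filter that did not give 1 direction. The tested one, 1448162_at, had 1648 and 1813 in positive against 1822 and 2512 in negative arrays. The higher positive array lay just below the lower negative array, and negative replicate 2 stood apart from the other 3 arrays. Its log2 fold change was -0.31 ± 0.20 (SE; 95% interval -0.73 to 0.12; adjusted p 0.985 by limma). The value was -0.08 without negative replicate 2 and -0.53 without negative replicate 1. The second, 1415989_at, had 1173 and 1236 in positive against 1210 and 1128 in negative arrays, with a log2 fold change of 0.04 ± 0.19. The third, 1451314_a_at, had 382 and 472 against 443 and 418, with -0.02 ± 0.23. In both of these the groups overlapped, and the mean of the 3 probe sets gave -0.09 (limma adjusted p 0.978). Vcam1 was thus measured well above the filter in all 4 arrays, on chromosome 3 at 116110020 to 116129688, without a difference that its probe sets shared.

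Icam1, the related ligand of leukocyte integrins, was measured by 1 probe set close to the filter level. Its signals were 24.8 and 21.1 in positive against 33.4 and 41.9 in negative arrays. The groups did not overlap, at means of 22.9 ± 2.62 and 37.6 ± 5.99 (SD, n = 2 each). The log2 fold change was -0.46 ± 0.37 (SE; 95% interval -1.27 to 0.35; limma adjusted p 0.985), and it ranged from -0.22 with a pseudocount of 64 to -0.69 with 1. Icam1 lies on chromosome 9 at 21015940 to 21028814, and its window is shown because it is the NF-kappaB target of the family that has one here (chr9:21015690-21015989, plus strand).
Icam1: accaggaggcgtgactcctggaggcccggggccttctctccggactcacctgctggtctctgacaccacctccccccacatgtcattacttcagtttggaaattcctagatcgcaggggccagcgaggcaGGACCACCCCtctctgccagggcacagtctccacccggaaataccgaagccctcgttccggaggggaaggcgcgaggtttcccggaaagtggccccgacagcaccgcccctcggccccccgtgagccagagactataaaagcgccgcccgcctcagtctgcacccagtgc
It has 1 match to these NF-kappaB-type letters, 120 bases before the start. Other forms of the NF-kappaB site were not searched, so stretches in small letters are not shown to lack one. Windows were found for 6 of the 9 genes, 7 in all. The NF-kappaB-type letters matched in 5 of these genes, Alcam being the exception, and in 50.8% of all 32851 windows of the same length. CACGTG matched in 1 gene and in 7.15% of all windows. The E-box CANNTG, which includes CACGTG, matched in 5 genes and in 72.3% of all windows. The AP-1 letters TGACTCA, on either strand, matched in 0 of the 6 genes and in 5.20% of all windows. A match describes these letters only.

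Alcam, which binds itself and the lymphocyte receptor Cd6, was measured by 5 probe sets, all above the filter. The tested one, 1426300_at, had 314 and 265 in positive against 398 and 300 in negative arrays. The groups overlapped, at means of 290 ± 34.3 and 349 ± 69.2 (SD, n = 2 each), with a log2 fold change of -0.25 ± 0.23 (SE; 95% interval -0.75 to 0.26; limma adjusted p 0.985). It was -0.05 without negative replicate 1 and -0.45 without negative replicate 2. All 5 probe sets of Alcam had log2 fold changes below 0, from -0.54 for 1437467_at to -0.08 for 1426301_at, and in all 5 the groups overlapped. The value of 1437467_at was -0.16 without positive replicate 2 and -0.92 without positive replicate 1. The probe sets share the same 4 RNA samples and do not add replicates. Negative replicate 1 was the highest array in 4 of the 5 and positive replicate 2 the lowest in 4 of the 5. Alcam spans 52248996 to 52453081 on chromosome 16.

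Mcam, a receptor of endothelium, pericytes and melanoma, also named CD146, was measured by 1 probe set. Its signals were 83.2 and 71.5 in positive against 66.4 and 43.2 in negative arrays. The groups did not overlap, yet the lower positive and the higher negative array lay close together. The log2 fold change was 0.42 ± 0.31 (SE; 95% interval -0.25 to 1.08; adjusted p 0.985 by limma). The value was 0.16 without negative replicate 2 and 0.66 without negative replicate 1. Mcam lies on chromosome 9 at 44134658 to 44142727.

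**Figure D2:**
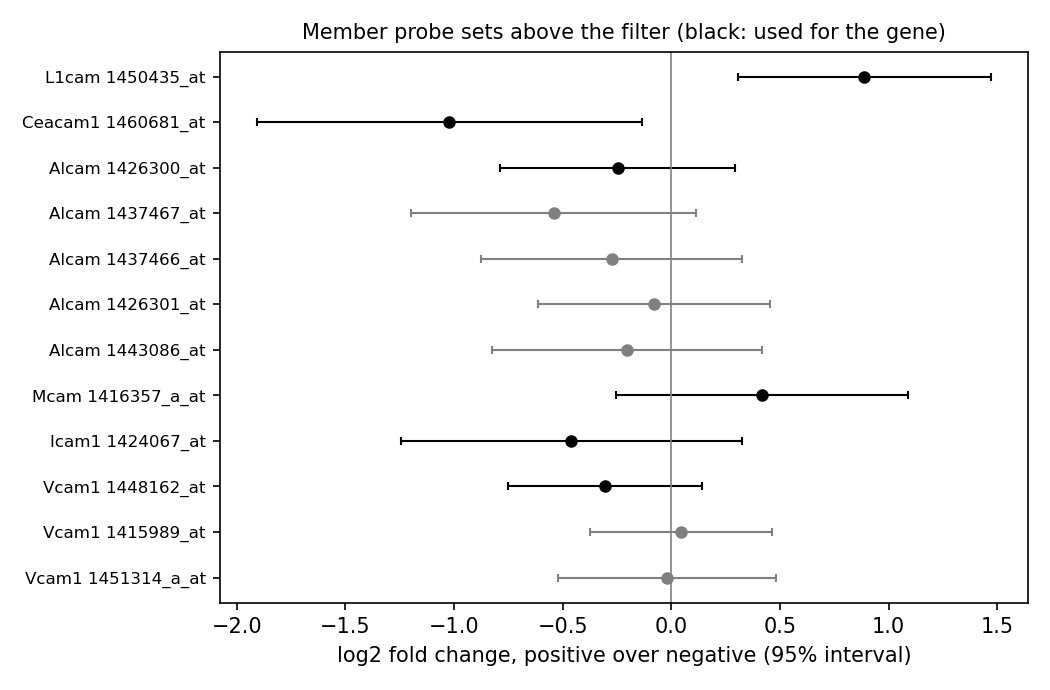
Log2 fold change of positive over negative cells with its 95% interval for the 12 member probe sets above the filter, from the fit of all probe sets; black points are the probe sets used for the genes. The intervals of L1cam and Ceacam1 leave out 0, and the other 10 include it; no probe set passed after adjustment.

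Tested on their own among 27022 probe sets, 0 of the 12 member probe sets were called (limma, adjusted p 0.959 or higher), and 0.0333% of all probe sets were. Of the 12, 3 lay above 0 and 9 below, with a median log2 fold change of -0.23. The groups did not overlap in 5 of 12, or 41.7%, against 33.2% of all probe sets. By gene the count was 5 of 6, all but Alcam, where 32.3% of all tested genes had groups that did not overlap. Which genes these were varied with the scaling: with arrays centred on their medians or left unscaled they were all but Vcam1. In those settings 25.4% and 11% of all tested genes had groups that did not overlap. One of the 5, Ceacam1, passed the filter only through its negative arrays, so the count and the median below are descriptions. L1cam and Mcam were on the higher side in the positive cells, as were 18.5% of all tested genes, and Ceacam1, Icam1 and Vcam1 on the lower, as were 13.8%. The median log2 fold change of the 6 genes was -0.28 beside 0.03 over all tested genes. These 6 are the members that passed the filter, not the family, and they did not share a direction.

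Cadm1, Bcam and Ncam1 had no probe set above the filter and were not tested. Cadm1, a junction protein of epithelia and nerve cells on chromosome 9, had 4 probe sets with signals of 0.950 to 22.6. Its brightest, 1417376_a_at, had 8.75 and 16.02 in positive against 22.6 and 4.90 in negative arrays, which overlapped. Groups did not overlap in 1417378_at, at 3.78 and 0.950 against 11.8 and 8.10. Nor did they in 1431611_a_at, in the opposite direction, at 4.05 and 4.90 against 2.75 and 3.58. Bcam, a laminin receptor of epithelia and red cells on chromosome 7, had 1 probe set with 7.28 and 30.8 in positive against 10.2 and 26.0 in negative arrays. In each group 1 array was above the filter level and 1 below it. Ncam1, the homophilic receptor of neurons that carries polysialic acid, had 7 probe sets on chromosome 9 with signals of 0.825 to 27.2. The brightest, 1450437_a_at, had 14.0 and 27.2 in positive against 7.95 and 3.70 in negative arrays. A second, 1426865_a_at, had 7.58 and 20.9 against 1.53 and 0.950. In both of these the groups did not overlap, with positive replicate 2 the single array above the filter level, while the other 5 probe sets of Ncam1 had overlapping groups. Of all probe sets above the filter 33.2% had groups that did not overlap, so nothing is read from those of Cadm1 and Ncam1. Since both groups' signals were at or under the filter level on most arrays, no fold is given. Across the 20 member probe sets below the filter, positive replicate 2 was the highest array in 9. On that same array the leukocyte gene Laptm5 had 264, against 8.68 to 30.9 on the other 3. Of the other markers of that list, Csf1r, Cd14, Adgre1, Lyz2, Ptprc and Tyrobp were also highest on it. Cd68 was at 95.1 there, within its range on the other arrays. Itgb2, the brightest, and Cd3e were lowest on it, Itgb2 at 160 against 239 to 330. The neural marker Gfap was also highest on it, at 81.2 against 1.4 to 21.6. Whether any of these is related to the members' values was not tested.

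**Figure D3:**
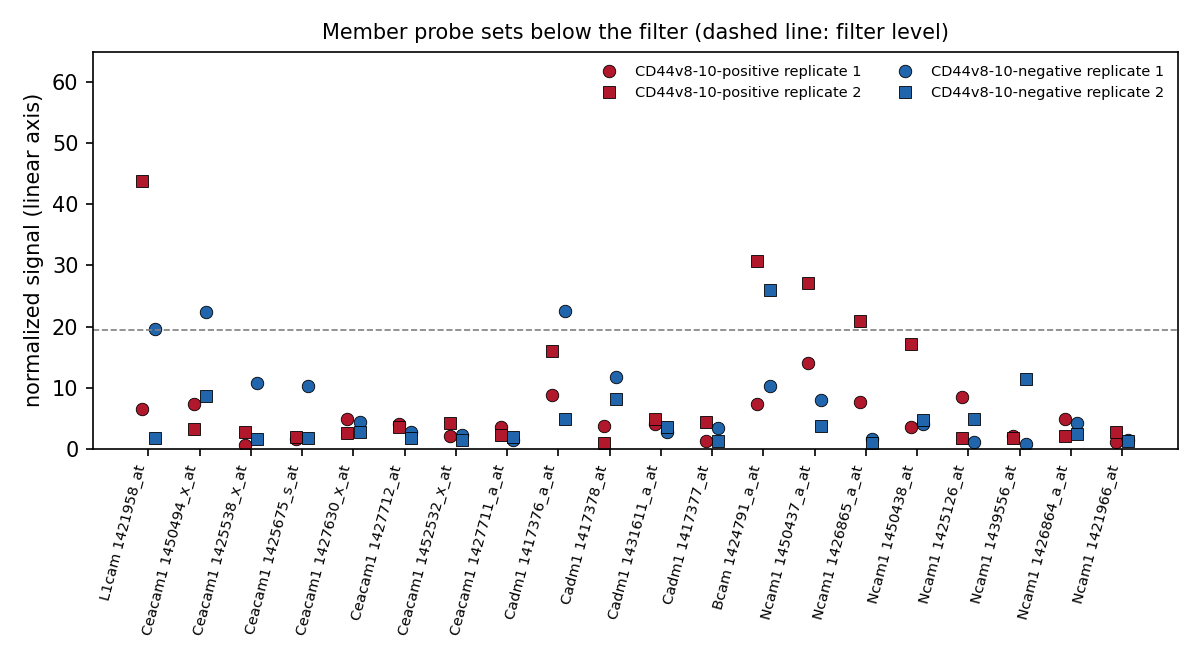
Normalized signal on a linear axis of the 20 member probe sets below the filter, 1 point per array (red positive, blue negative, circles replicate 1, squares replicate 2), with the filter level of 19.4 dashed. Most points lie below the line, and the highest is an L1cam probe set at 43.8 in positive replicate 2.

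Further genes of the same superfamily gave no call either. Of 40 related immunoglobulin adhesion genes on the array 24 were tested, and 0 were called higher or lower (limma), with 16 above 0 and 8 below and a median log2 fold change of 0.07 beside 0.03 over all tested genes. That median was -0.059 without positive replicate 2 and -0.0075 without negative replicate 1. Groups did not overlap in 5 of the 24, or 20.8%, against 32.3%. The count includes Nfasc, which passed the filter only through its negative arrays, so it is a description. The lowest p belonged to Mpzl2, an epithelial adhesion protein, with 1061 and 780 in positive against 436 and 798 in negative arrays, which overlapped (log2 fold change 0.61, limma adjusted p 0.985). Nfasc, the neurofascin related to L1cam, had 7.47 and 15.5 against 25.2 and 37.4 (limma adjusted p 0.985), with both positive arrays below the filter level. The brightest were basigin, Bsg, at 0.06, and neuroplastin, Nptn, at -0.16, both with overlapping groups. The endothelial member Pecam1 and the L1cam relatives Chl1 and Nrcam were among the 16 below the filter.

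Ligands and receptors of the members had 16 of 26 genes tested and 0 called (limma), with 7 above 0 and 9 below and a median of -0.0049. Groups did not overlap in 8 of 16, or 50%, against 32.3% of all tested genes. The count includes Itga9, which passed the filter only through its positive arrays, so it is a description. Spn, the leukocyte sialophorin that binds Icam1, had 138 and 126 in positive against 59.6 and 74.7 in negative arrays (log2 fold change 0.84, limma unadjusted p 0.00813, adjusted p 0.919). Itga9, an integrin chain that binds Vcam1, had 46.3 and 26.5 against 17.0 and 4.70, with both negative arrays below the filter level (0.98, limma adjusted p 0.985). The brightest were the galectin Lgals1 and moesin, Msn, which links membrane receptors to actin and had 0.27. Lgals1 was the highest value of every array, so quantile normalization gave it 1 value, and its deposited intensities were 19907 to 22696. The integrin chains Itgal, Itgam and Itgax, which pair with Itgb2 to bind Icam1, and Itga4, the main partner chain for Vcam1, were below the filter. The tested chain Itgb2 had 239 and 160 in positive and 330 and 256 in negative arrays (-0.53, limma adjusted p 0.985).

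Anchors, sheddases and modifying enzymes of the members had 21 of 23 genes tested and 0 called (limma), with 11 above 0 and 10 below and a median of 0.07. That median was -0.027 without positive replicate 2. Groups did not overlap in 10 of 21, or 47.6%, against 32.3%. The count includes Epb41l3, which passed the filter only through its positive arrays, so it is a description. Epb41l3, which links Cadm1 to the spectrin skeleton, had 30.8 and 64.8 in positive and 15.1 and 16.7 in negative arrays, the latter below the filter level (0.95, limma adjusted p 0.985). Dpysl2, a protein of axon growth, had 2023 and 1922 against 2343 and 2861 (-0.39, limma adjusted p 0.985). The brightest were the spectrin chain Sptbn1, at -0.16, and the actinin Actn1, at -0.02. St8sia4, which makes polysialic acid on Ncam1, was below the filter. St8sia2, which also makes it, was tested and not called, with 33.8 and 43.9 in positive against 20.3 and 24.6 in negative arrays.

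Genes of the NF-kappaB pathway and its targets had 30 of 32 tested and 0 called (limma), with 20 above 0 and 10 below. Their median was 0.16, beside 0.03 over all tested genes. Median centring of the arrays gave 0.038 for this list and -0.07 for all tested genes. Unscaled arrays gave -0.04 and -0.15. Groups did not overlap in 11 of 30, or 36.7%, 10 of them on the higher side in positive cells, where 18.5% of all tested genes were on that side. The chemokine Ccl5 had 454 and 225 in positive against 201 and 114 in negative arrays (1.01, limma adjusted p 0.980). The cytokine Il1a had 128 and 74.7 against 60.1 and 37.0 (0.84, limma adjusted p 0.985). The brightest were the prostaglandin synthase Ptgs2, at -0.03, and the inhibitor Nfkbia, at -0.14, with overlapping groups. Icam1 and Vcam1, targets of the same factor, were at -0.46 and -0.31.

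**Figure D4:**
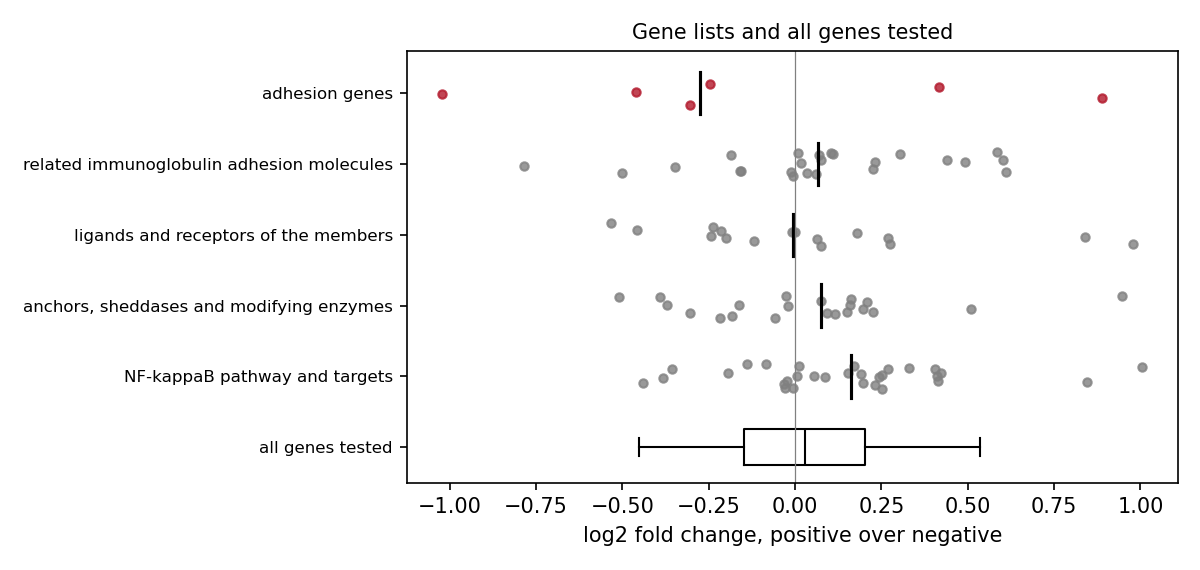
Log2 fold changes of positive over negative cells for the tested adhesion genes (red), for 4 related gene lists (grey points, spread vertically for sight) and for all 11956 tested genes (box from the lower to the upper quartile, line at the median, whiskers from the 5th to the 95th percentile). Short black lines are the medians, at -0.28 for the adhesion genes and 0.03 for all tested genes.

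The profile of L1cam over the 4 arrays was nearest to those of Serpina10, a protease inhibitor, Itgb6, an epithelial integrin chain, and Hsd11b2, a steroid dehydrogenase. Their Euclidean distances, from log2 values centred on each gene's mean, were 0.0257, 0.0644 and 0.0873, and they were the 3 nearest of 11955 genes. Itgb6 had 87.1 and 74.8 in positive against 44.3 and 30.5 in negative arrays, and Hsd11b2 had 118 and 105 against 66.3 and 44.1. Serpina10 had 39.0 and 34.1 against 15.8 and 8.93, with its negative arrays below the filter level. None of the 3 was called (limma adjusted p 0.980 to 0.985). Likeness over 4 arrays is a description of these arrays alone.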

How the data were processed

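Total RNA from 4 samples was hybridised to 4 arrays, assigned to 2 groups from the sample titles. The deposited values are linear intensities, 1 per probe set and array. Per the submitters' processing notes GCOS, an Affymetrix program, was used in an unstated role, and the background correction, summary and scaling are, in the sources used here, not given. Trimmed means (2% at each end) ranged from 196 to 345, so the arrays were quantile normalized and transformed as log2(value + 16). After 64 control probe sets were removed, those with a mean log2 value below the 40th percentile (5.15) were left out, leaving 27022. Genes came from the 2016 platform annotation, and 34945 probe sets had 1 symbol. The brightest probe set stood for each gene. Groups were compared with limma 3.58.1 in R 4.3.3 (lmFit, eBayes with intensity trend), and the procedure was tested on simulated data. There, with 200 of 11956 genes changed, it called 7% of log2 changes of 0.5 and 65.3% of those of 1. Of its calls, 7.57% were false. The simulated noise was normal and independent, with no array that stood apart, and the 200 included log2 changes of 2 and 3. The data themselves gave 9 called genes, so these shares need not hold for them. The members and lists were chosen with earlier results of these data known. Named genes were the 9 members; from each related list the called genes or, with none called, the 2 of lowest p and the 2 brightest; from each marker list the 2 brightest; and the 3 nearest in profile to the member of lowest p. Chl1, Nrcam, Pecam1, Ptprc, Laptm5, Gfap, Itgal, Itgam, Itgax, Itga4, St8sia2 and St8sia4 were named after their values were seen. So were Csf1r, Adgre1, Lyz2, Tyrobp, Cd68, Cd3e, Cspg4, Rgs5, Cdh5, Kdr, Plvap, Tie1, Esrp1, Cldn7 and Epcam. Promoter windows are RefSeq's, GRCm38.p6. Probe set positions within genes were not analysed. The alternatives were other scalings, pseudocounts, filters, probe set rules, variance models, a replicate block and leaving out each array.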

Additional observations from a re-analysis of the deposited data

How the results depend on the processing

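No member gene or probe set was called in any of the 18 alternative settings, and 0 genes of the 4 related lists were (limma, lowest adjusted p of a member probe set or gene 0.268, lowest unadjusted p 0.00209). The 6 tested genes kept their sign in every alternative in which they were tested: L1cam ranged from 0.64 to 1.07, Ceacam1 from -1.74 to -0.47, Alcam from -0.47 to -0.05, Mcam from 0.16 to 0.66, Icam1 from -0.69 to -0.22 and Vcam1 from -0.53 to -0.08. Without scaling between arrays the median log2 fold change of all genes was -0.15 instead of 0.03, and the list of anchors, sheddases and modifying enzymes had a median of -0.11, the related adhesion genes -0.05 and the NF-kappaB list -0.04, against 0.07, 0.07 and 0.16. The anchors were also below 0 with arrays centred on their medians (-0.024), with the 60th percentile filter (-0.021) and without positive replicate 2 (-0.027), and the related genes without positive replicate 2 (-0.059), without negative replicate 1 (-0.0075) and with every probe set on its own (-0.0060). Over all alternatives the median of the ligands and receptors was -0.19 to 0.065. The count of member genes whose groups did not overlap was 6 of 6 with one trimmed mean, where 30.3% of all tested genes did not. It was 4 of 6 when the probe sets of each gene were averaged (Alcam and Vcam1 overlapped), beside 33.5% of all tested genes. With no filter it was 6 of 9, Ncam1 included, beside 32.5%. With the filter at the 60th percentile 3 member genes were tested and 2 had groups that did not overlap, beside 31.4% of all tested genes. That count was 5 to 7 when 1 array was left out, where fewer arrays make separation easier (59.7% to 73.9% of all genes). Single probe sets turned sign while staying near 0. The Vcam1 probe set 1415989_at was -0.079 with arrays centred on their medians, -0.16 with no scaling and -0.0065 to 0.092 with 1 array left out, and 1451314_a_at was -0.17 to 0.13 with 1 array left out (0.13 without positive replicate 1 and 0.021 without negative replicate 1). The Alcam probe set 1426301_at was -0.21 to 0.049 with 1 array left out, above 0 without positive replicate 2, and 1443086_at was -0.45 to 0.055, above 0 without negative replicate 1. Their cause was not tested. The replicate numbers are not stated to mark a shared day, and same-numbered arrays deviated from their group means with a correlation of 0.12 over genes. With the replicate number as a block the adjusted p of L1cam was 0.304 and of Ceacam1 0.691, and 18 genes were called in place of 9. No background level per probe set was used here, so the precision of values near the filter level is unknown.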

Other observations

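A pair of probe sets is annotated to both Ceacam1 and its paralog Ceacam2 and was left out above. The brighter, 1422123_s_at, had normalized signals of 19.9 and 24.8 in positive against 31.5 and 27.4 in negative arrays, with both positive arrays below both negative arrays. The other, 1460682_s_at, had 2.25 and 6.33 against 2.75 and 1.43. The brightest probe set of Ceacam2 alone reached at most 8.07 on any array. Which of the 2 genes the shared probe sets measured was not tested.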
